A study of Mus musculus with 8 samples.

Results

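Natural killer (NK) cells made up 1765 of the 12828 single-cell transcriptomes that passed the cell filter in B16-OVA melanoma tumors of mice that were left untreated or given adoptive cell transfer (ACT) of OT1 CD8+ T cells. They were chosen by their UMIs of a few genes, and these values are therefore a description: each had at least 1 unique molecular identifier (UMI, 1 counted transcript) of Ncr1, which encodes the activating receptor NKp46. They also had no UMI of the T-cell receptor chain genes Cd3e, Cd3d and Cd3g, of Cd8b1 or of the B-cell gene Cd79a, and fewer than 5 UMIs of the myeloid gene Lyz2. Cells with UMIs of both cycling genes Mki67 and Top2a were set aside as cycling NK cells and numbered 72. The cell filter kept 500 to 6000 detected genes, 2000 to 40000 UMIs, 5 to 60% ribosomal protein UMIs and less than 10% mitochondrial UMIs.

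The study asked whether OT1 cells engineered to secrete PD1d, a decoy made of the ectodomain of PD-1, together with IL-2v, a variant of interleukin 2, and IL-33 act on tumors without lymphodepletion. All mice were C57BL/6, all carried subcutaneous B16-OVA melanoma, and OT1 cells recognise its ovalbumin antigen. The 8 libraries were non-treated tumors on day 5, tumors treated with untransduced OT1 cells on days 5 and 12, with PD1d/IL-2v-secreting OT1 cells on day 12, with PD1d/IL-33-secreting OT1 cells on day 12, and with PD1d/IL-2v/IL-33 ACT on days 5, 12 and 26. PD1d/IL-2v/IL-33 ACT was a mixture of PD1d/IL-2v and PD1d/IL-33 cells in equal parts, so that no transferred cell was designed to carry all 3 molecules. Each library pooled tumors of several mice, and there was 1 library for each condition and day, so differences between libraries have no replicate check. Intervals given below are 95% intervals for counting error only. Sorted CD45+ cells were enriched for CD8+ T cells before loading, which bears on every share of cells.

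NK cells are innate lymphocytes that kill target cells with perforin and granzymes and release chemokines and interferon gamma. Their response is set by the balance of activating receptors such as NKp46 and NKG2D (Klrk1) and inhibitory receptors, which in mice include many members of the Ly49 family (Klra genes). They carry the beta and common gamma chains of the interleukin 2 receptor, through which interleukins 2 and 15 act, and mature through stages told apart by genes such as Il7r and Cd7 on the early side and Itgam and Klrg1 on the late side.

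From the non-treated library on day 5, 65 NK cells were obtained. The untransduced libraries gave 383 NK cells on day 5 and 42 on day 12. The PD1d/IL-2v library gave 424 and the PD1d/IL-33 library 84. PD1d/IL-2v/IL-33 tumors gave 515 NK cells on day 5, 188 on day 12 and 64 on day 26. The NK cells of a library summed to between 185852 UMIs (untransduced day 12) and 3056252 UMIs (PD1d/IL-2v/IL-33 day 5), so that the libraries with few cells carry the least precision. The median NK cell held from 4105.5 UMIs in untransduced day 12 to 7128.5 UMIs in PD1d/IL-2v/IL-33 day 12, the deepest of the 8.

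The gate was checked on markers it did not use. Of the 1765 NK cells, 93.6% had UMIs of at least 2 of the 4 genes Klrb1c, Klre1, Klra8 and Klra4, against 2.37% of 4554 CD8 T cells, taken as cells with Cd8b1 and Cd3 UMIs, no UMI of Ncr1 or Cd79a and fewer than 5 of Lyz2, cycling cells left out. The 4 genes were at 0 together in 20 NK cells. Of 11 T-cell markers the gate fixed 4 at 0. Of the other 7, from 0 to 6 were at 0 in a library, and they summed to between 69.6 CPM (UMIs scaled to a common total per library) on day 26 and 240 CPM in the non-treated library. Cd28 was the most abundant of them in every library. B-cell markers other than Cd79a summed to at most 10.2 CPM and melanoma markers to at most 4.39 CPM. Dendritic-cell markers were uneven, from 23.5 CPM in PD1d/IL-2v/IL-33 day 12 to 712 CPM on day 26, with Cd74 the most abundant of them on day 26. Myeloid markers other than Lyz2, which the gate limited, summed to 299 CPM in PD1d/IL-2v/IL-33 day 5, led by S100a9, and to at most 61.4 CPM elsewhere. Of markers of type 1 innate lymphoid cells, which also carry Ncr1, the 8 listed summed to between 71.0 CPM in PD1d/IL-2v/IL-33 day 5 and 407 CPM on day 26. The part of such cells in the results was not tested.

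The edge of the gate lay within the detection of Ncr1. Of the NK cells, 500 had a single Ncr1 UMI and 705 had 4 or more. A further 1272 cells failed on Ncr1 alone, and 647 of these had at least 2 of the 4 other markers. Another 397 cells failed only because of Cd3 UMIs, and 192 of these had a single one. The 62 cells with Cd8b1, Cd3 and Ncr1 UMIs were 1.22% of the cells with both Cd8b1 and Cd3. Of all barcodes, 286 had a sequence that occurred in more than 1 library, and 38 of them were NK cells. No doublet caller was run.

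The share of NK cells among passing cells was 23.6% in the non-treated library (interval 18.7 to 29.0%). It was 19.6% in untransduced day 5 (17.9 to 21.4%) and 20.8% in untransduced day 12 (15.4 to 27.0%). In PD1d/IL-2v day 12 the NK share was 21.8% (19.97 to 23.7%) and in PD1d/IL-33 day 12 it was 10.97% (8.84 to 13.4%). The intervals of the first 4 libraries overlap, and PD1d/IL-33 day 12 lay below them. PD1d/IL-2v/IL-33 tumors held 21.6% NK cells on day 5 (19.9 to 23.3%), 11.4% on day 12 (9.94 to 13.1%) and 1.75% on day 26 (1.35 to 2.23%). The 3 intervals of this series of days do not overlap. CD8 T cells numbered 391, 619 and 2233 in the same 3 libraries, and a smaller NK share cannot be told apart from a larger CD8 share. Among passing cells with no Cd8b1 UMI, NK cells were 27.5%, 20.2% and 5.07% on days 5, 12 and 26, so the lowest share was again on day 26.

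**Figure D1:**
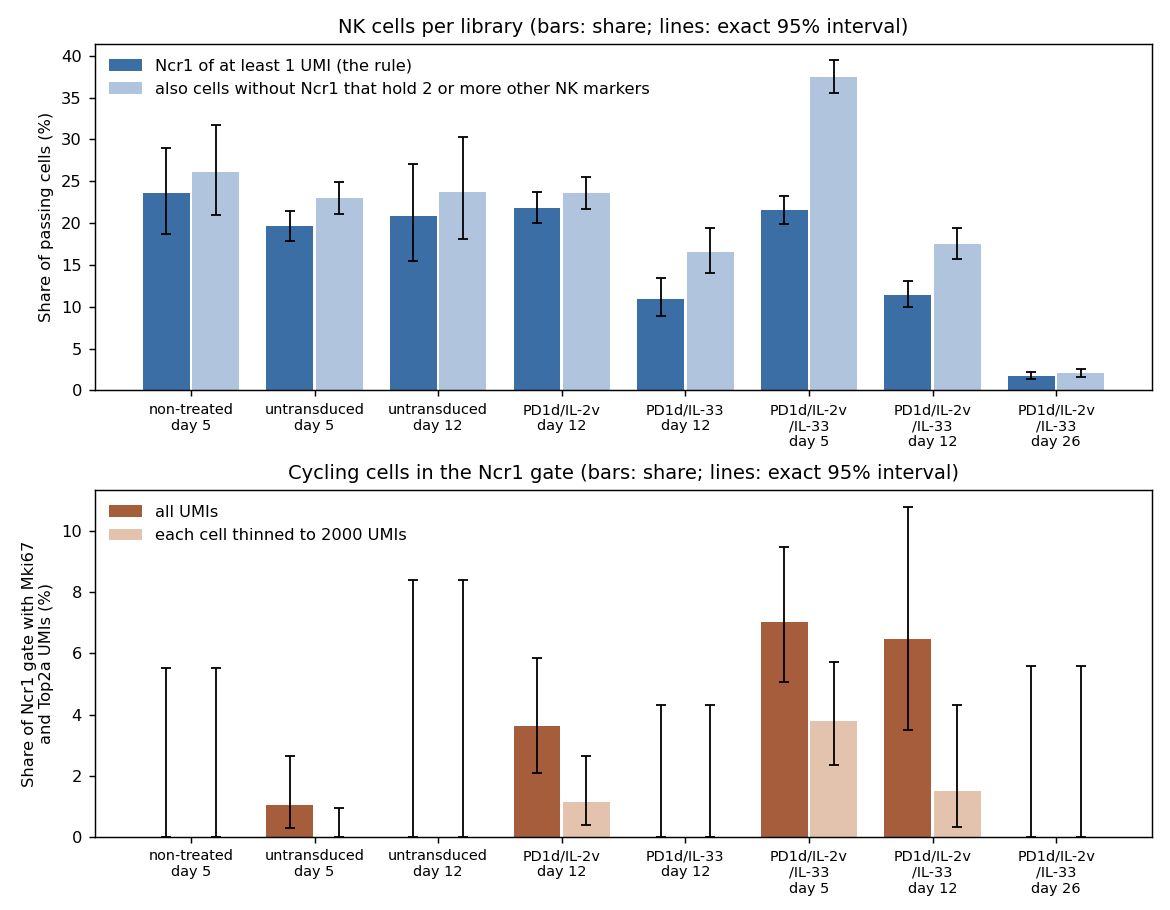
Share of NK cells among passing cells and share of cycling cells among NK cells (both in percent, vertical axes) in each of the 8 libraries, with bars for the share and lines for the 95% Clopper-Pearson interval. Paler bars give the wider class and the cells thinned to 2000 UMIs. The NK share was 1.75% in PD1d/IL-2v/IL-33 day 26 and between 10.97 and 23.6% in the other libraries.

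The order of the shares changed when cells without Ncr1 were let in. A wider class, chosen after seeing the data, added cells with at least 2 of the 4 other markers and no Ncr1 UMI, and it held 37.5% of passing cells in PD1d/IL-2v/IL-33 day 5, the highest of the 8 libraries, against 26.1% in the non-treated library. In that class Ncr1 was detected in 57.6% of cells in PD1d/IL-2v/IL-33 day 5, 65.3% in day 12 and 66.1% in PD1d/IL-33 day 12, and in 85.3 to 92.4% in the other 5 libraries. These shares are a description, since the class lets cells in on Ncr1 alone but asks 2 other markers of cells without it, and Klrb1c, 1 of the 4, was itself lowest in the first 3 of these libraries.

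Cycling cells were 7.04% of the NK cells in PD1d/IL-2v/IL-33 day 5 (39 of 554) and 6.47% on day 12 (13 of 201). They were 3.64% in PD1d/IL-2v day 12 (16 of 440) and 1.03% in untransduced day 5 (4 of 387). No cycling NK cell was found in the other 4 libraries, where a count of 0, taken as at most 3 cells, allows shares of up to 4.62% in non-treated day 5, 7.14% in untransduced day 12, 3.57% in PD1d/IL-33 day 12 and 4.69% in PD1d/IL-2v/IL-33 day 26. The upper Clopper-Pearson bounds drawn in the plot are wider, 5.52%, 8.41%, 4.30% and 5.60% in the same order. Depth entered this measure, since both genes had to be seen. With each cell thinned to 2000 UMIs the shares were 3.79%, 1.49% and 1.14% in PD1d/IL-2v/IL-33 day 5, day 12 and PD1d/IL-2v day 12, and 0 in untransduced day 5.

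The comparison that was tested was that of NK cells with CD8 T cells of the same 8 libraries, infused and host cells together. These libraries differ in condition or day, and they served as blocks, not as replicates of a condition. UMIs were summed per library and class and tested with edgeR's quasi-likelihood test with the library as a block and Benjamini-Hochberg adjustment. Of 8647 genes tested, 1452 (16.8%) were higher and 1622 (18.8%) lower in NK cells at an adjusted p under 0.05, 35.5% in all. Log2 fold changes below are NK cells over CD8 T cells. Genes used by either gate are not counted among the results. Because the 11 genes other than Ncr1 in the NK-defining list were taken from known markers, their being higher, 11 of 11, checks the gate.

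Several receptor and adaptor genes that NK cells are known for were far higher in NK cells. Klra8 (Ly49H) had a log2 fold change of 8.25 and Klra4 (Ly49D) one of 8.33 in edgeR's test (adjusted p 6.3e-17 and 2.9e-16), both higher in NK cells of 8 of 8 libraries. Tyrobp, which encodes the signalling adaptor DAP12, followed with 6.86 (adjusted p 3.5e-15). Cma1, a mast-cell protease gene, had the largest log2 fold change, 8.59, at a median of 50.2 CPM in NK cells. Of 20 activating receptor and adaptor genes tested, 13 were higher, 4 lower and 3 were not called. Of 20 inhibitory receptor genes, 13 were higher and 5 lower. Those lower included checkpoint genes of exhausted T cells: Pdcd1, which encodes PD-1, had a log2 fold change of -5.32 by edgeR (adjusted p 1.2e-13), Havcr2 one of -3.92 and Lag3 one of -3.09. Pdcd1 ranged from 0 to 26.5 CPM in NK cells of the 8 libraries.

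Among cytotoxic genes 9 of 17 were higher, 4 lower and 4 were not called. Gzma was higher in NK cells with a log2 fold change of 3.89 (edgeR adjusted p 2.2e-07), and so was Prf1, which encodes perforin, with 2.46 (adjusted p 1.8e-13). Gzmb followed with 1.33 (adjusted p 1.6e-05) and Gzmc with 2.79 (adjusted p 6.4e-05). Gzmf was lower in NK cells, with a log2 fold change of -3.05 (adjusted p 0.0027), though only in 4 of 8 libraries, with 2 the other way and 2 at 0 in both classes. Also lower was Gzmk, typical of memory-like T cells, with -2.45. The chemokine genes Xcl1, Ccl3 and Ccl4 were not called (adjusted p 0.45, 0.72 and 0.57 by edgeR), and Ifng, which encodes interferon gamma, was lower with -1.14, in 5 of 8 libraries.

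Among receptor genes related to the transferred cells' cytokines, Il2rb was higher in NK cells with a log2 fold change of 1.40 by edgeR (adjusted p 1.2e-10). Il2rb ranged from 789 to 1740 CPM over the 8 libraries. Il2ra, the high-affinity chain, was lower with -3.01 (adjusted p 1.3e-08) and never above 26.5 CPM in NK cells. The paper states that the secreted interleukin variant does not bind this chain. Il2rg did not pass the test (log2 fold change 0.04, adjusted p 0.75). Il1rl1, which encodes the IL-33 receptor ST2, was at 0 in the NK cells of 6 libraries, with 1 UMI in PD1d/IL-2v day 12 and 3 UMIs in PD1d/IL-2v/IL-33 day 5. Levels this low cannot be compared between libraries at this depth.

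Further groups differed between the classes. Among transcription factors 10 of 23 were higher in NK cells and 8 lower, with a log2 fold change of 2.80 for Irf8. Eomes and Tbx21, the T-box factors that NK cells need to mature, were higher with 1.95 and 1.36. Immediate-early genes were higher for 9 of 13 and lower for 0, with 1.52 for Fos. Interferon-stimulated genes were lower for 12 of 21 and higher for 0, with -5.02 for Ifi27l2a. Glycolysis and nutrient uptake genes were lower for 10 of 13 and higher for 0, and ribosome biogenesis genes for 9 of 12 and 0. The median log2 fold change over all genes tested was 0.00.

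**Figure D2:**
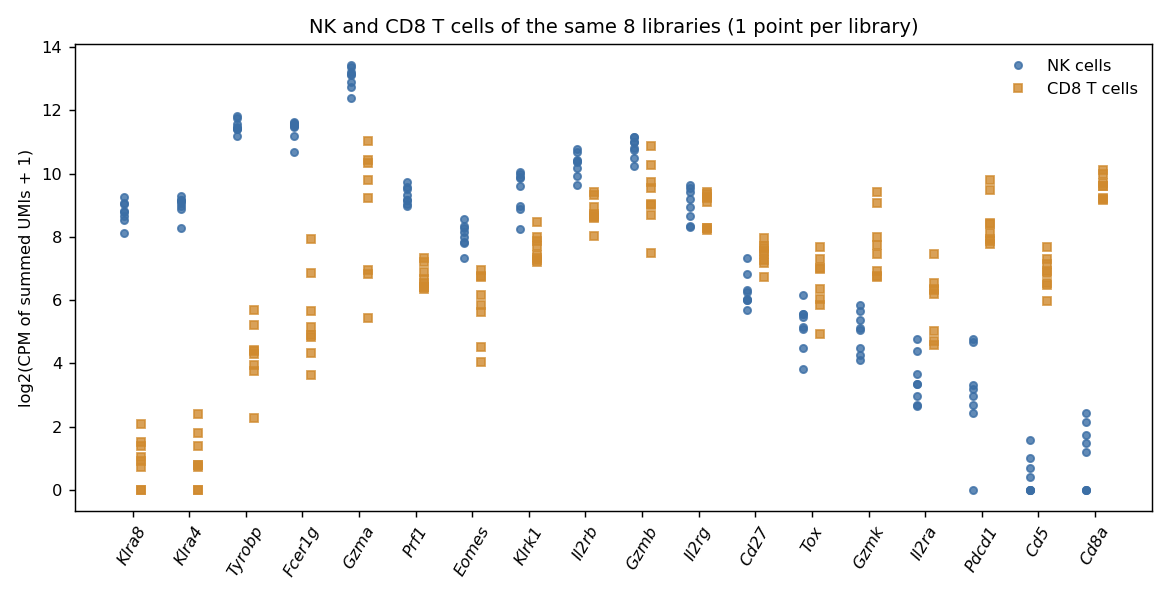
Level of 18 genes as log2 of CPM plus 1 (vertical axis) in NK cells (circles) and CD8 T cells (squares), with 1 point for each of the 8 libraries. Klra8, Klra4 and Tyrobp are higher in NK cells and Pdcd1 and Cd8a in CD8 T cells in all 8 libraries, while the points of Il2rg overlap.

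Levels in the granzyme cluster differed among the NK cells of the 8 libraries. Gzmb, Gzmc, Gzmd, Gzme, Gzmf and Gzmg, which encode serine proteases of the killing granule, lie within 144.7 kb on chromosome 14 (chr14:56117619-56262334, GRCm38). Gzma lies apart on chromosome 13. Gzmb, which encodes granzyme B, was at 2054 CPM in non-treated day 5, 2287 and 1200 CPM in untransduced day 5 and 12, 2033 CPM in PD1d/IL-2v day 12, 1442 CPM in PD1d/IL-33 day 12 and 2284, 1706 and 1805 CPM in PD1d/IL-2v/IL-33 days 5, 12 and 26. These levels lay within 2-fold of each other. The share of NK cells with a Gzmb UMI varied more, after thinning to 2000 UMIs from 35.7% in untransduced day 12 (interval 21.6 to 52.0%) and 36.9% in non-treated day 5 to 82.9% in PD1d/IL-2v/IL-33 day 5 (79.4 to 86.1%). Gzma was from 5381 CPM in untransduced day 12 to 11023 CPM in PD1d/IL-33 day 12.

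Gzmc was at 288 CPM in non-treated day 5, 536 and 145 CPM in untransduced day 5 and 12, 1377 CPM in PD1d/IL-2v day 12, 173 CPM in PD1d/IL-33 day 12 and 321, 2909 and 1010 CPM in PD1d/IL-2v/IL-33 days 5, 12 and 26. PD1d/IL-2v/IL-33 day 12 was highest (interval 2828 to 2992 CPM), followed by PD1d/IL-2v day 12. The value of day 26 rests on 6 of 64 cells, of which 3 had at least 50 UMIs and 1 held 43.9% of them, and its thinned share of cells was 7.81%. Gzmd was at 836 CPM in PD1d/IL-2v/IL-33 day 12, 40.8 CPM in PD1d/IL-2v day 12, 5.24 CPM in PD1d/IL-2v/IL-33 day 5 and 2.93 CPM in untransduced day 5, with 0 in the other 4. Gzmf was at 1245 CPM in PD1d/IL-2v/IL-33 day 12 and at most 9.75 CPM in any other library. Gzme and Gzmg followed, at 206 and 168 CPM in PD1d/IL-2v/IL-33 day 12 and at most 9.04 and 0.67 CPM elsewhere. All 5 genes were thus highest in the same library.

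**Figure D3:**
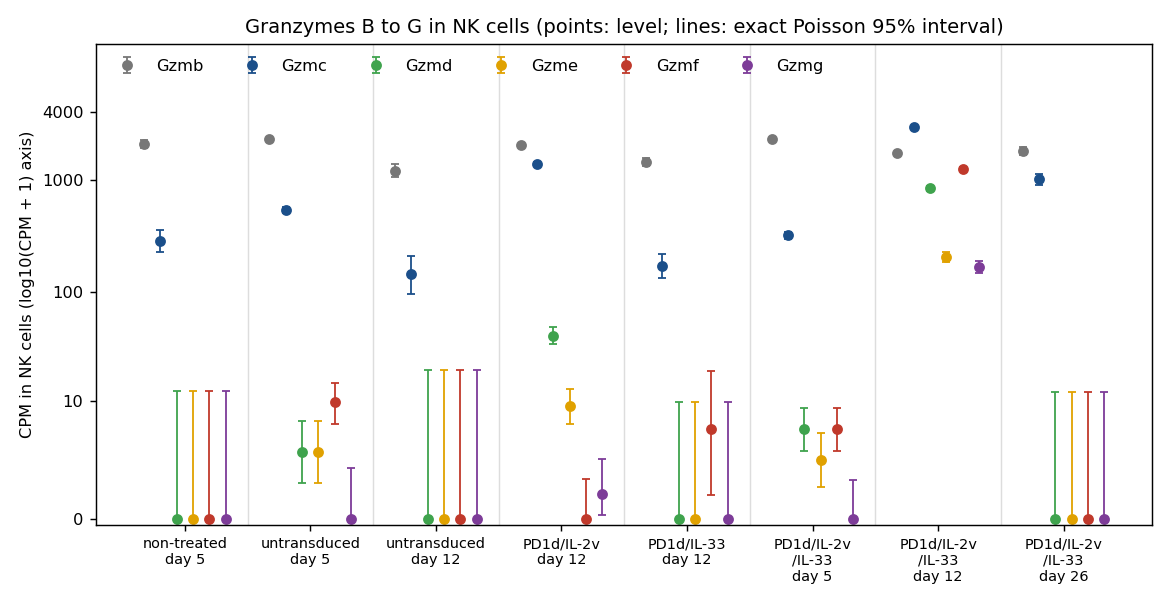
Level of granzymes B to G in the NK cells of each library (CPM, on an axis of log10 of CPM plus 1), with points for the level and lines for the exact 95% Poisson interval. Gzmb lies between 1200 and 2287 CPM in the 8 libraries, while Gzmc to Gzmg are highest in PD1d/IL-2v/IL-33 day 12.

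The 250 bases before the start of 4 cluster genes are shown because their genes moved differently: the CPM of Gzmb stayed within 2-fold across libraries, while those of Gzmc, Gzmd and Gzmf were highest in a single library. They are RefSeq promoters of GRCm38.p6, all on the minus strand, printed 5′ to 3′ in the direction of transcription. RefSeq places that of Gzmc before a start inside the annotated gene, whose outermost start is at 56241647, and the one of Gzmd lies a few bases inside its gene's outermost start. Capitals mark ACCACA, the core bound by RUNX factors, on either strand (TGTGGT), TGACGTCA, the cAMP response element core bound by CREB and ATF factors, which reads the same on both strands, and TGACATCA, which differs from it in a single base, on either strand (TGATGTCA).
Gzmb (chr14:56262335-56262584): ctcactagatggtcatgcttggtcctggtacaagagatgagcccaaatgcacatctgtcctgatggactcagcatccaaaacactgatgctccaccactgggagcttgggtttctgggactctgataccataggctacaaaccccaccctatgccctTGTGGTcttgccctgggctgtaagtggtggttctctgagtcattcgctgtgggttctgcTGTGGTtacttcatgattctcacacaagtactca
Gzmc (chr14:56234658-56234907): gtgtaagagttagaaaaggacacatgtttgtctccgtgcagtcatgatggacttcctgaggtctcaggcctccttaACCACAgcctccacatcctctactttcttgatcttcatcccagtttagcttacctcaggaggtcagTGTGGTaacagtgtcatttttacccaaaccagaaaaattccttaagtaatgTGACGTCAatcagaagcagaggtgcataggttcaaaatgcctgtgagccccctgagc
Gzmd (chr14:56132594-56132843): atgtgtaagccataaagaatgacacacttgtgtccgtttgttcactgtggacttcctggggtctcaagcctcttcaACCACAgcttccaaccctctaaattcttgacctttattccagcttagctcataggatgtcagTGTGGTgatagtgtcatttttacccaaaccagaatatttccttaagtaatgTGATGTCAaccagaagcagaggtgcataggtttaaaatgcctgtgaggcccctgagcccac
Gzmf (chr14:56211408-56211657): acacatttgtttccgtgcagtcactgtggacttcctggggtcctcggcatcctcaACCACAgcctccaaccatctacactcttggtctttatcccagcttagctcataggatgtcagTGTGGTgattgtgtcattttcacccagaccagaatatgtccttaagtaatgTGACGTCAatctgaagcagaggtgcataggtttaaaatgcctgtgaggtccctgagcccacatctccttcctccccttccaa

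These letters were chosen after the sequences had been seen. TGACGTCA occurred in the promoters of Gzmc, Gzmf and Gzmg, 57, 82 and 77 bases before the start that RefSeq uses for its promoter, and in 1.55% of 32851 promoters of the same length. TGACATCA occurred in Gzmd and Gzme, 61 and 62 bases before the start, and in 2.93% of promoters. Gzmb had neither. Outside the cluster, Spp1 and Ifitm2, which were also highest in PD1d/IL-2v/IL-33 day 12, had neither in their promoters. TGACATCA occurred 194 bases before the start of Klrb1c, which was lowest in that library (319 CPM). The part of either sequence in these levels was not tested. ACCACA occurred 2 times in each of the 6 cluster genes and in 14% of all promoters, and TTCNNNGAA, the letters that STAT factors bind, occurred in none of them and in 7.02% of promoters. The promoters of Gzmc and Gzmd were 80.5% identical, those of Gzmd and Gzme 94.8%, and those of Gzmb and Gzmc 47.5%. The coding sequences of Gzmd and Gzme were 93.8% identical and those of Gzmf and Gzmg 86.9%, so the split of UMIs within these pairs is uncertain.

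In PD1d/IL-2v/IL-33 day 12 the granzyme transcripts were held by part of the NK cells. Gzmc was detected in 84 of 188 cells, and the 10 cells with the most UMIs held 57.8% of them. Gzmd was detected in 31 cells, the highest holding 39.1% of its UMIs. Gzmf was detected in 16 cells, and a single cell with 1316 UMIs held 63.6%. Without the highest cell of each library, a check chosen after seeing the data, Gzmf was still 5.20 log2 units above PD1d/IL-2v/IL-33 day 5 (6.36 with it), Gzmd 5.25 (5.80) and Gzmc 3.13 (3.14). With cells thinned to 2000 UMIs, Gzmc was seen in 33.0% of NK cells of this library and in 5.95 to 13.2% of those of the others, against 44.7% and 9.38 to 21.5% without thinning.

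Free RNA and neighbouring T cells were set beside these values. In the 32 B cells and macrophages of PD1d/IL-2v/IL-33 day 12, the thinned share with Gzmc, Gzmd, Gzme, Gzmf or Gzmg was 0. With so few cells, 0 cannot be told from a small share such as the 3.72% of NK cells with Gzmg. Without thinning, these cells held Gzmc at 4.12 CPM and Gzmb at 86.5 CPM. The part of free RNA in the NK levels was not tested. In the 100 cells of this library with at least 2 of the 4 other markers and no Ncr1 UMI, levels were lower than in the gate: Gzmc was at 815 CPM, Gzmd at 62.3 CPM, Gzme at 10.4 CPM, Gzmf at 1.48 CPM and Gzmg at 0. Their median depth was 5766.5 UMIs. CD8 T cells of this library also carried the genes, Gzmc at 865 CPM, Gzmd at 360 CPM and Gzmf at 1226 CPM. The ratios differed between the classes, with 2.34 Gzmc UMIs for each Gzmf UMI in NK cells and 0.71 in CD8 T cells. Without the cell highest in Gzmf in each class, a check chosen after seeing the data, they were 5.98 and 0.92, so that the size of the NK ratio rests on a single cell. Of the 31 NK cells with Gzmd, 27 (87.1%) had at least 2 of the 4 other NK markers, against 91.1% of those without it. Of the 16 with Gzmf, 12 (75.0%) had them, against 91.9% of those without, and Cd8a was at 7.86 CPM against 0.71 CPM. The summed UMIs of the cells with Gzmd gave 2.02 CPM of Cd8a and 0 of the T-cell genes Cd5 and Cd6. The cells with Gzmd had a median of 14954 UMIs against 6088 UMIs for those without, and the part of cell size or of doublets in this was not tested.

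**Figure D4:**
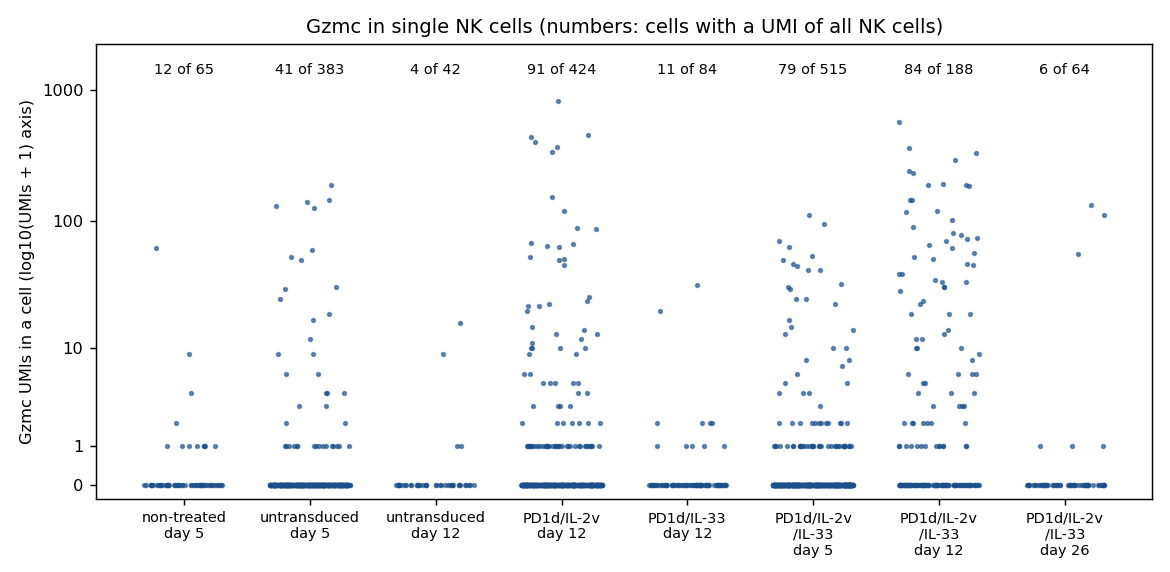
Gzmc UMIs of single NK cells by library, with 1 point for each cell and the vertical axis as log10 of UMIs plus 1. PD1d/IL-2v/IL-33 day 12 had Gzmc in 84 of 188 NK cells and PD1d/IL-2v day 12 in 91 of 424.

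Spp1, Ifitm2 and Mt1, which lie outside the cluster, were also highest in PD1d/IL-2v/IL-33 day 12. Spp1, which encodes the cytokine osteopontin, was at 407 CPM in PD1d/IL-2v/IL-33 day 12, 233 CPM in PD1d/IL-2v day 12, 107 CPM in PD1d/IL-2v/IL-33 day 5 and at most 43.0 CPM in the other 5. Ifitm2, an interferon-induced membrane protein gene, was at 545 CPM in PD1d/IL-2v/IL-33 day 12 and at most 81.2 CPM elsewhere, the latter in non-treated day 5. Mt1, a metallothionein gene, was at 169 CPM in PD1d/IL-2v/IL-33 day 12 and at most 26.5 CPM elsewhere. In PD1d/IL-2v day 12, where Gzmc was next highest, Ifitm2 was at 37.8 CPM and Mt1 at 11.7 CPM. These 3 genes were also found in other cells of PD1d/IL-2v/IL-33 day 12. In its B cells and macrophages Spp1 was at 338 CPM, Ifitm2 at 420 CPM and Mt1 at 342 CPM, with thinned shares of 18.8%, 43.8% and 46.9%, against 17.6%, 14.9% and 10.6% of NK cells. In its CD8 T cells they were at 213, 658 and 305 CPM. In the cells of this library with other markers and no Ncr1, Spp1 was at 194 CPM, Ifitm2 at 20.8 CPM and Mt1 at 71.1 CPM. The part of free RNA in these levels was not tested. Within PD1d/IL-2v/IL-33 day 12, Spp1 was detected in 71.0% of cells with Gzmd and 25.5% of those without, and Ifitm2 stood at 1403 CPM and 181 CPM in the same cells. Depth differed between those cells as given above.

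Comparisons between libraries used the log2 ratio of CPM after adding 10 CPM, among genes with at least 30 UMIs in both libraries together, and a gene was counted as higher or lower when it was past 2-fold. On a second scale, the trimmed mean of M values (TMM), which centres on the bulk of genes, the split of higher and lower genes changed in most comparisons and is printed beside each. Genes named below were past 2-fold on both scales and also without the highest cell of each library, unless the values say otherwise. CPM are given from the second library of each comparison to the first.

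On day 5, NK cells of PD1d/IL-2v/IL-33 tumors were compared with those of untransduced OT1 tumors. Il7r, Xcl1, Cd7 and several immediate-early genes were lower. Of 8482 genes, 173 were higher (2.04%) and 224 lower (2.64%), 4.68% in all, against 301 and 111 on the TMM scale. The median log2 ratio over all genes was -0.16, and -0.01 by TMM. Il7r, the interleukin 7 receptor gene, had a log2 ratio of -2.49 (53.6 to 1.31 CPM). Xcl1, a chemokine gene through which NK cells attract dendritic cells, had -1.95 (1186 to 300 CPM). Cd7, an early NK surface marker gene, had -1.65 (578 to 177 CPM). Ltb, which encodes lymphotoxin beta, had -1.67, the growth regulator gene Myc -1.68 and Klf2, a quiescence and trafficking factor gene, -1.43. Immediate-early genes were lower for 6 of 13 and higher for 0 on both scales, with a median of -0.87, and Fos had a log2 ratio of -1.92 (493 to 123 CPM). Activating receptors, counted here and below without Ncr1, which the gate used, were lower for 5 of 20, and for 3 on the TMM scale. Early maturation genes were lower for 5 of 12 (4 by TMM). Markers of type 1 innate lymphoid cells, Il7r among them, moved with these genes, lower for 4 of 7 and higher for 0 on both scales, with a median of -1.31. Their summed level went from 231 to 71.0 CPM, and Tmem176b and Cxcr6 had log2 ratios of -1.61 and -1.31. Their part in this was not tested. Late maturation genes were lower for 3 of 12 and higher for 1 (2 and 1 by TMM), with Klf2 and S1pr5 (log2 ratio -1.06, and -0.91 by TMM) among those lower.Interferon-stimulated genes were lower for 3 of 21 (2 by TMM).

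Higher genes on day 5 fell into those spread over cells and those held by few. Hnrnpa0, an RNA-binding protein gene, had a log2 ratio of 2.30 (interval 2.00 to 2.60) and was seen in 315 of 515 cells against 57 of 383. Klrb1b, which encodes the inhibitory receptor NKR-P1D, had 1.44 (109 to 312 CPM). Itgam, which encodes the integrin CD11b and is the 1 late maturation gene that was higher, had 1.61, and the glycolysis gene Pgk1 1.95. These 4 genes were spread over many cells. Ccl24, an eosinophil-attracting chemokine gene, was at least 151-fold higher, with 675 UMIs in 19 cells against 0, and 481 of them in a single cell. Of the 366 S100a9 UMIs, 344 came from a single cell, and without the highest cells its log2 ratio went from 3.33 to 0.47. The myeloid gene Chil3 was found in 12 of the 515 cells. Myeloid markers other than Lyz2 summed to 299 CPM in this library and 54.6 CPM in untransduced day 5, and their part in these genes was not tested.

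On day 12, PD1d/IL-2v/IL-33 was set against PD1d/IL-2v alone, which shares the secreted IL-2v. The 2 treatments also differ in the share of infused cells designed to secrete IL-2v, since the mixture held PD1d/IL-33 cells too. Granzymes C to G, Mt1 and Vegfa were higher, and Ccl3, Ccl4, Myc and several activating receptor genes lower. Of 8112 genes, 120 were higher (1.48%) and 203 lower (2.5%), 3.98% in all, against 234 and 95 by TMM, with the median of all genes at -0.20 and -0.04. Cytotoxic genes were higher for 5 of 20 and lower for 3 (5 and 2 by TMM). Gzmc went from 1377 to 2909 CPM. Gzmf was at least 1239-fold higher, since no UMI was found in PD1d/IL-2v. Gzmd had a log2 ratio of 4.06 and Ifitm2 one of 3.54 (37.8 to 545 CPM). Metallothionein and hypoxia genes were higher for 3 of 6 and lower for 0, with 3.04 for Mt1 and 2.40 for Vegfa, which encodes a vessel growth factor. Cytokine and chemokine genes were lower for 6 of 14 and higher for 0 (5 and 1 by TMM). Ccl3 had a log2 ratio of -2.60 (455 to 66.8 CPM) and Ccl4, a related chemokine gene, -2.27 (1575 to 319 CPM). Myc had -2.62, Cd7 -2.02 and Klf2 -1.92. Activating receptors were lower for 8 of 19 and higher for 0 (3 and 0 by TMM), with a median of -0.94 against -0.20 over all genes. Klrk1, the NKG2D gene, had -1.34 (783 to 304 CPM), and Cd226, an adhesion receptor gene, -1.64. Ncr1 itself went from 842 to 283 CPM, but the gate used it. Of the class II genes, Cd74 had a log2 ratio of -4.0, with UMIs in 10 of 188 cells against 93 of 424, and single cells of PD1d/IL-2v held 58.9% of the UMIs of Cd74, 66.4% of H2-Aa, 62.1% of H2-Eb1 and 80.1% of H2-Ab1. Without the highest cell of each library their log2 ratios were -3.06, -2.58, -2.17 and -0.56. That of H2-Ab1, -2.32 with all cells, was 0.10 without the 5% of cells with the most UMIs, so that no direction can be given for it. Dendritic-cell markers summed to 23.5 CPM against 592 CPM, and their part in this was not tested.

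Against PD1d/IL-33 on day 12, which has 84 NK cells, Gzmc to Gzmg were again higher and Ccl3 and Ccl4 lower in PD1d/IL-2v/IL-33. Of 5830 genes, 87 were higher (1.49%) and 137 lower (2.35%), 3.84% in all, against 191 and 53 by TMM, with the median of all genes at -0.18 and 0.05. Gzmd was at least 105-fold higher. Gzmb and Gzma had log2 ratios of 0.24 and -0.52 and were not past 2-fold. Spp1 had a log2 ratio of 4.34 (interval 3.48 to 5.02) and Gzmc one of 4.0 (3.66 to 4.35). Tnfrsf9, which encodes the costimulatory receptor 4-1BB, had 1.58 (207 to 638 CPM), and the checkpoint gene Ctla4 1.92 (13.3 to 78.2 CPM). Ccl3 had a log2 ratio of -3.22, Ccl4 -2.84, Klf2 -1.58 and Cd7 -1.43. Activating receptors were lower for 1 of 16 and for 0 by TMM. Interferon-stimulated genes were higher for 3 of 12, all 3 of the Ifitm family, and lower for 1 (3 and 0 by TMM). Myeloid markers other than Lyz2 moved with them, at 61.4 CPM in sum against 5.31 CPM in PD1d/IL-33. Among these, S100a9 had a log2 ratio of 1.82, and 0.38 without the highest cell of each library. The part of myeloid cells in this was not tested.

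The single-cytokine libraries of day 12 were set against each other. NK cells of PD1d/IL-33 tumors had more Vegfa, Cxcr4 and Klrb1b and less Spp1, Gzmc and Myc than those of PD1d/IL-2v tumors. Of 7442 genes, 240 were higher (3.22%) and 239 lower (3.21%), 6.44% in all, against 208 and 279 by TMM. Vegfa had a log2 ratio of 2.32 (19.1 to 135 CPM) and the chemokine receptor gene Cxcr4 one of 2.07 (88.7 to 404 CPM). The NR4A factor gene Nr4a3 had 2.03, the lipid synthesis gene Dgat1 1.97 and Klrb1b 1.70. Klrb1b, at 271 CPM in PD1d/IL-33 day 12 and 312 and 259 CPM in PD1d/IL-2v/IL-33 days 5 and 12, stood between 76.3 and 140 CPM in the other 5 libraries. On the lower side Spp1 had -3.56, Gzmc -2.92, Myc -2.25 and Crtam, an adhesion receptor gene, -1.53. Cytotoxic genes were lower for 4 of 16 and higher for 0, among them Gzmd, whose log2 ratio went from -2.35 to -0.80 without the highest cells. Interferon-stimulated genes were lower for 6 of 15 (7 by TMM) and higher for 0, with a median of -0.88 against -0.06 over all genes. Of the 3 myeloid markers other than Lyz2 that were tested, 2 were also lower, as were 4 of 4 dendritic-cell markers and 3 of 7 markers of type 1 innate lymphoid cells (4 by TMM), and their part in this was not tested.

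Along the days of PD1d/IL-2v/IL-33 ACT, NK cells of day 12 had more Gzmc to Gzmg and less Klf2, Ccl3 and Ccl4 than those of day 5. Of 8116 genes, 30 were higher (0.37%) and 78 lower (0.961%), 1.33% in all, against 50 and 61 by TMM, with the median of all genes at -0.15 and -0.02. Gzmf had a log2 ratio of 6.36, Gzmd 5.80, Gzmc 3.14 and Spp1 1.84. Gzmb had -0.42 (2284 to 1706 CPM) and was not past 2-fold. Xcl1 was higher with 1.20 (300 to 703 CPM). Klf2 had -2.26 (302 to 55.3 CPM), Ccl3 -2.22, Ccl4 -1.91 and Cxcr4 -1.71 (534 to 156 CPM). Cytokine and chemokine genes were lower for 7 of 12 and higher for 2 (4 and 2 by TMM), while activating receptors were past 2-fold in 0 of 19.

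On day 26 the granzyme genes Gzmd to Gzmg were at 0, and Klf2, Cd7 and Ccl3 were higher than on day 12. Of 5803 genes, 475 were higher (8.19%) and 197 lower (3.39%), 11.6% in all, but TMM turned the split to 139 and 478, and moved the median of all genes from 0.24 to -0.11. The day 26 library has 64 NK cells. Klf2 had a log2 ratio of 2.69 (55.3 to 411 CPM) and Cd7 one of 2.28 (161 to 821 CPM). Ltb had 2.25, Ccl3 2.22, Klrc1, which encodes the inhibitory receptor NKG2A, 1.84, and Klrk1 1.72. Markers of type 1 innate lymphoid cells moved with these genes, from 116 to 407 CPM in sum, higher for 3 of 5 and lower for 1 on both scales. Cxcr6 had a log2 ratio of 2.77 with UMIs in 6 of 64 cells, Tmem176b 1.89 and Tnfsf10 1.48, and Itga1 had -1.18. Their part in this was not tested. Gzmf and Gzmd were at least 125- and 84.2-fold lower. Spp1 had -4.65, Vegfa -2.21, the transferrin receptor gene Tfrc -2.13 and Tnfrsf9 -1.78. Glycolysis and nutrient genes were lower for 6 of 13 and higher for 0 (9 and 0 by TMM), and activating receptors higher for 4 of 16 and lower for 0 (2 and 0 by TMM). Immediate-early genes were higher for 6 of 13 and lower for 2 by CPM, and higher for 0 and lower for 2 by TMM, with medians of 0.72 and 0.30 against 0.24 and -0.11 over all genes. Dusp1 had 1.25 by CPM and 0.84 by TMM, and Fosb -2.13 and -2.44. Cd74 had a log2 ratio of 4.75, with UMIs in 10 of 64 cells and 48.4% of them in a single cell, while dendritic-cell markers summed to 712 CPM against 23.5 CPM, and their part in this was not tested.

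Untransduced against non-treated tumors on day 5 addressed transfer of OT1 cells without a transgene. Tnfrsf9 and the interferon-stimulated genes Ifitm3 and Ifi27l2a were higher. With all cells counted, activating receptors and cytotoxic genes were not past 2-fold. Of 6917 genes, 101 were higher (1.46%) and 38 lower (0.549%), 2.01% in all, against 107 and 26 by TMM. Interferon-stimulated genes were higher for 7 of 18 and lower for 1 on both scales, with a log2 ratio of 2.33 for Ifitm3 and 1.84 for Ifi27l2a, each seen in 1 of 65 non-treated cells. Markers of other cells moved with them. Dendritic-cell markers summed to 427 CPM in untransduced and 135 CPM in non-treated tumors, and myeloid markers other than Lyz2 to 54.6 and 23.7 CPM. The class II genes H2-Aa and Cd74 had log2 ratios of 2.43, the highest of this comparison, and 1.65, and the inflammatory cytokine gene Il1b 2.21, with 42.4%, 47.6% and 64.0% of their UMIs in a single cell of the untransduced library. The log2 ratio of Cd74 was -0.59 without the 5% of cells with the most UMIs, -0.10 with the cell filter of the study's later experiment and -0.017 with no Lyz2 UMI allowed, so that no direction can be given for it. The part of other cells in this was not tested. The lower interferon-stimulated gene was Isg15 (159 to 61.5 CPM), 39 of whose 47 UMIs in the non-treated library came from a single cell. The lowest ratio of all was that of the chemokine gene Cxcl10, whose 105 UMIs in the non-treated library came from a single cell. Without the highest cells its log2 ratio went from -2.61 to 2.29, and that of Isg15 from -1.24 to 0.78. Tnfrsf9 had 1.22 (162 to 391 CPM). Activating receptors were past 2-fold in 0 of 20 and cytotoxic genes in 0 of 15. Gzmc had a log2 ratio of 0.88, but 62 of its 85 UMIs in the non-treated library came from a single cell, and without the highest cells it had 2.37.

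PD1d/IL-2v/IL-33 against untransduced on day 12 rests on 42 NK cells of the latter. Gzmc to Gzmg were higher, and Myc, Ccl3 and several immediate-early genes lower. Of 5505 genes, 225 were higher (4.09%) and 418 lower (7.59%), 11.7% in all, against 505 and 121 by TMM, with the median of all genes at -0.21 and 0.14. Gzmf was at least 77.1-fold and Gzmd at least 51.8-fold higher, and Gzmc had a log2 ratio of 4.23 (interval 3.72 to 4.79). Gzma and Gzmb had 0.52 and 0.50, not past 2-fold, though Gzmb had 1.22 without the highest cell of each library. Myc had -3.07, the thioredoxin inhibitor gene Txnip -2.97 and the glucocorticoid response gene Tsc22d3 -2.66. Ccl3 had -2.61 and the immediate-early gene Jun -2.40. Immediate-early genes were lower for 6 of 13 and higher for 0 (4 and 0 by TMM), and heat shock genes for 3 of 10 (3 by TMM).

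The PD1d/IL-2v/IL-33 library of day 12 entered 5 of the 8 comparisons, which therefore share its NK cells. Beside the library names, the aggregation table holds a code for each library, 5 codes in all, whose meaning is not given. The 2 single-cytokine libraries share a code, as do PD1d/IL-2v/IL-33 and untransduced of day 12. The other 6 comparisons cross codes, so that code and condition cannot be told apart in them. Non-treated day 5 and PD1d/IL-2v/IL-33 day 26 also share a code, but are not paired in any of the 8 comparisons. The share of ribosomal protein UMIs in NK cells ranged from 23.2% in both non-treated and untransduced day 5 to 35.4% in PD1d/IL-2v/IL-33 day 12, and its part in the CPM of other genes was not tested apart from the TMM scale.

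Receptor genes followed the libraries in different orders. Klrk1 was at 1069 CPM in non-treated day 5, 957 and 925 CPM in untransduced day 5 and 12, 783 CPM in PD1d/IL-2v day 12, 505 CPM in PD1d/IL-33 day 12 and 473, 304 and 1024 CPM in PD1d/IL-2v/IL-33 days 5, 12 and 26. The 3 libraries of tumors given IL-33-secreting cells up to day 12 were lowest, and day 26 lay between non-treated and untransduced day 5. Klrb1c, which encodes NK1.1, gave the same 3 lowest libraries (536, 488 and 319 CPM). Of the Ly49 genes, Klra8 ranged from 279 to 616 CPM and Klra4 from 307 to 632 CPM, while Klra7, the inhibitory Ly49G2 gene, was lowest on day 26 (315 CPM) and from 477 to 678 CPM elsewhere. Klra3 and Klra9 have coding sequences 95.9% identical and Klra8 and Klra9 91.9%, so counts of these members can be split between copies.

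**Figure D5:**
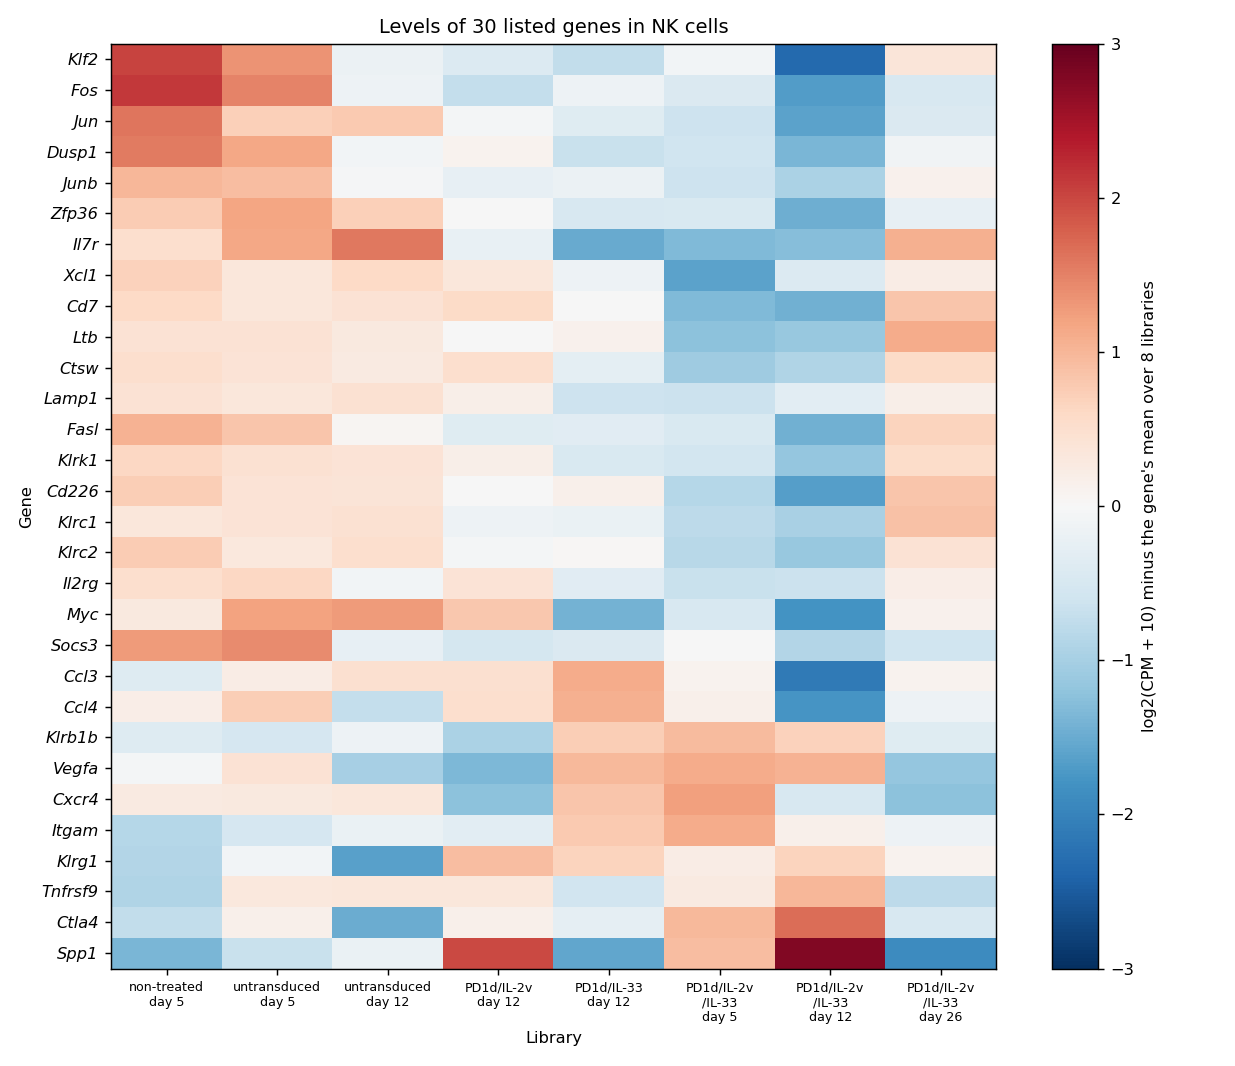
Level of 30 genes (rows) in the NK cells of the 8 libraries (columns), as log2 of CPM plus 10 minus the gene's mean over libraries, with the colour scale from -3 to 3. Spp1, Tnfrsf9 and Ctla4 are highest in PD1d/IL-2v/IL-33 day 12, and Klf2, Fos and Dusp1 in non-treated day 5.

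NK cells of a library also differed among themselves. With cells thinned to 2000 UMIs, the variance to mean ratio within libraries, averaged over libraries with at least 50 NK cells, was highest for the ribosomal RNA-overlapping gene Gm42418 (97.8), followed by Ccl5 (32.8), Gzmc (24.8), Ccl4 (23.4) and Gzmb (18.6). Cd74 (17.8), Lars2 (16.8), Gzma (14.8), Gzmf (11.8) and Ccl3 (11.4) were also among the first 10. Chemokine and granzyme genes were 7 of these 10. The ratio can rise with a gene's level, and Ccl5 and Gzma were abundant, with 127661 and 101868 UMIs in all NK cells. The part of level in this order was not tested. The value of Gzmf rests on few cells: of its 2107 UMIs, 2069 came from PD1d/IL-2v/IL-33 day 12 and 1316 from a single cell there. The values and their order depended on depth: with cells of at least 4000 UMIs thinned to 4000, Ccl4 (49.6) came before Gzmc (44.5), and Gzmb (21.9) was ninth of the 10. Gm42418 took from 1.22% of NK UMIs in untransduced day 5 to 3.37% in PD1d/IL-33 day 12.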

How the data were processed

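The authors sorted CD45+ cells enriched for CD8+ T cells, prepared 10x 5′ libraries and deposited UMI counts per gene and cell for 8 libraries in 1 aggregated table (27998 gene rows, 15700 barcodes). The submitters' processing notes name Cell Ranger 2.2.0, bcl2fastq and GRCm38; the study's methods name another Cell Ranger version. Rows with the same symbol were summed (27933 symbols). Library totals ranged from 1387032 to 24917112 UMIs. Each barcode was assigned to its library by its suffix and the line of the deposited aggregation table.

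UMIs of NK cells were summed per library and expressed as CPM, with exact Poisson 95% intervals, and shares were given Clopper-Pearson intervals. Log2 ratios used a pseudocount of 10 CPM and genes with at least 30 UMIs. Their intervals combined the limits of both sums. Without replicate libraries no test was run between conditions. A fold against a library at 0 is a lower bound against a floor of 3 UMIs per library. NK and CD8 T cell sums of the 8 libraries were compared with edgeR 4.0.16 (R 4.3.3, glmQLFTest, library as block because both sums come from the same library), with Benjamini-Hochberg adjustment over all genes tested. The script was tested on simulated data. Other tools were DESeq2 1.42.0, numpy 2.4.6, scipy 1.17.1, pandas 2.3.3 and matplotlib 3.10.9.

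The members, the 26 gene lists and the rules were chosen with earlier results of these data known. Genes named were the 8 highest and 8 lowest ratios of each comparison, at most 4 members of a list with the largest ratios, the genes of the gate, the NK-defining genes, the granzymes, the Klra genes and the interleukin 2 and 33 receptor genes. For NK against CD8 T cells they were the 10 largest differences in each direction. Alternatives changed the pseudocount, the UMI minimum, the scaling, the gate, the cell filter and the depth of each cell.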

Additional observations from a re-analysis of the deposited data

How the results depend on the processing

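Of 10022 values recomputed under the alternatives, 8774 kept their direction and side of 2-fold or of the test, 1230 moved and 18 reversed. In NK against CD8 T cells the count of 3074 genes was 2670 with DESeq2 and 1664 with cells thinned to 2000 UMIs (fewer UMIs and genes). It was from 2531 to 3114 when leaving out 1 library at a time, and 1648 without the pairing of both classes within a library (no library block).

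Counts past 2-fold depended on the pseudocount: with 1 CPM they were 1181 (PD1d/IL-2v/IL-33 against untransduced, day 5), 1108 (against PD1d/IL-2v), 560 (against PD1d/IL-33), 1213 (PD1d/IL-33 against PD1d/IL-2v), 483 (day 12 against 5), 1219 (day 26 against 12), 472 (untransduced against non-treated) and 1111 (against untransduced, day 12). With at least 100 UMIs a gene, which leaves fewer genes, they were 74 against PD1d/IL-33, 247 for PD1d/IL-33 against PD1d/IL-2v, 250 for day 26, 38 for untransduced against non-treated and 192 against untransduced day 12, the last being 1078 at 10 UMIs. With the cell filter of the study's later experiment they were 93 against PD1d/IL-33, 68 for day 12 against 5, 398 for day 26 and 401 against untransduced day 12. With thinned cells they were 108 against PD1d/IL-33, 302 for day 26, 216 for untransduced against non-treated and 257 against untransduced day 12. With cells weighted equally day 12 against 5 gave 71, and without the highest cell of each gene, chosen after seeing the data, untransduced against non-treated gave 280. The causes were not tested.

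NK shares in library order (non-treated, untransduced day 5 and 12, PD1d/IL-2v, PD1d/IL-33, PD1d/IL-2v/IL-33 day 5, 12 and 26) moved as follows. Among cells without Cd8b1 they were 33.2%, 27.0%, 30.8%, 20.6%, 27.5%, 20.2% and 5.07% (untransduced day 12 stayed within its interval). With 2 Ncr1 UMIs they were 16.1%, 14.9%, 19.2%, 6.79%, 11.5%, 7.18% and 1.26% from untransduced day 5 on. The later filter gave 22.9% (untransduced day 5), 24.2% (PD1d/IL-2v), 25.7% and 9.57% (PD1d/IL-2v/IL-33 day 5 and 12), Lyz2 of 0 gave 17.5% and 19.8%, and a Cd3 UMI allowed gave 22.2% and 24.9%, in untransduced day 5 and PD1d/IL-2v. The wider class gave 23.0% (untransduced day 5), 16.6% (PD1d/IL-33), 37.5% and 17.5%. Cycling shares with either gene were 8.27% (untransduced day 5), 19.1% (PD1d/IL-2v), 22.7%, 19.9% and 7.81% (PD1d/IL-2v/IL-33 day 5, 12 and 26). With the later filter they were 0, 1.31%, 4.73% and 0.74%, and thinned 0, 1.14%, 3.79% and 1.49%, in the first 4 of these.

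Reversed log2 ratios were those of genes of which single cells held many UMIs, though Cd74 was seen in 66 cells of untransduced day 5. With the later filter they were 0.14 for H2-Ab1 (against PD1d/IL-2v), 0.46 for Il1b and 2.28 for S100a9 (day 12 against 5) and -0.10 for Cd74 (untransduced against non-treated). Without the 5% of cells with the most UMIs they were 0.10 for H2-Ab1, 0.14 for Ccr7 (PD1d/IL-33 against PD1d/IL-2v), 0.60 for S100a8, 1.19 for S100a9, -0.59 for Cd74, -0.065 for H2-Ab1 and 0.94 for Isg15 (against untransduced day 12). Requiring other markers gave 2.57 for Cxcl10 and 0.95 for Isg15, and Lyz2 of 0 gave 2.45 for Cxcl10 and -0.017 for Cd74. Without the highest cell they were 2.29 and 1.36 for Cxcl10 and 0.61 for Isg15. Counts rest on 42 to 84 NK cells in 4 libraries, whose depth limits what could be seen.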
